A study of Homo sapiens with 12 samples.

Results

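Among the 60617 genes of the table, 10 immediate-early genes were followed across all samples. They were taken by gene symbol, and each symbol matched 1 Ensembl gene with at least 1 read. The set held the zinc finger transcription factors EGR1, EGR2, EGR3, KLF4 and KLF6, the orphan nuclear receptor NR4A1, the synaptic protein gene ARC, the regulators IER2 and IER3, and PHLDA1, which encodes a pleckstrin homology-like protein.

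Immediate-early genes are transcribed within minutes of a growth factor, stress or calcium signal, from promoters that are already occupied and without new protein synthesis. The best known route runs through the ERK kinases to ternary complex factors, which sit with serum response factor (SRF) on CArG boxes, while CREB acts through cAMP response elements. The mRNAs are mostly short-lived, and in pancreatic ductal carcinoma this route is commonly active without an added stimulus.

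The cells were PANC-1, an established line from a human ductal carcinoma of the pancreas, labelled wild type and kept in DMEM with fetal bovine serum. mRNA was sequenced in 4 groups of 3 libraries. In the siRNA arm cells received either siGL3, which targets luciferase and served as control, or siMYOF, which targets the mRNA of myoferlin, a membrane repair and vesicle trafficking protein. In the compound arm they received either DMSO alone or WJ460, a myoferlin-directed small molecule, at 50 nM. Every library is labelled 48 h, so a single labelled time was measured and no time course. For the siRNA groups the methods describe calcium phosphate transfection, then a wash, with RNA taken 48 h after the wash. Treatment in the siRNA arm thus began more than 48 h before the RNA was taken, and the time since its start may differ between the arms. The methods list 1 MYOF siRNA sequence, so that an effect of lost myoferlin and an effect of that sequence cannot be told apart. Separate seeding of the cultures is described for the knockdown and is not given for DMSO and WJ460 in the sources used here, so p-values measure only how far the libraries of a group spread, in part perhaps for technical reasons.

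Reads assigned to genes numbered 12335147 to 19847210 per library, with the most in replicate 1 of siGL3 and of siMYOF. Levels are given as normalized counts, that is reads divided by the size factor of the library. Changes are log2 fold changes of the normalized count + 1, and a gene passed, and is called higher or lower, at a p under 0.05 after adjustment over all genes tested (limma). By their batch label, 1 siGL3 and 1 siMYOF library (replicate 1 of each) were early and 10 libraries late, and 6628 of 14720 tested genes (45.0%) differed between early and late siRNA libraries. MYOF was at 12786, 20168 and 17823 normalized counts in siGL3 and at 3470.2, 2372 and 2003 in siMYOF (log2 fold change -2.71, adjusted p = 2.41e-05, limma) and fell by 1.88 between the early libraries and by 3.12 between the late ones. WJ460 left MYOF mRNA within the spread (0.16, adjusted p = 0.603). Ductal markers (KRT7, KRT8, KRT18, KRT19 and EPCAM) summed to 11233 to 38933 normalized counts per library and none was at 0 throughout a group. Of the 4 ductal genes tested, KRT18 (0.82) was higher and KRT8 (-0.96) lower with siMYOF, where KRT19 (-0.07) and EPCAM (-0.37) did not pass. With WJ460 KRT8 (0.57) and KRT18 (0.32) were higher and KRT19 (-0.65) lower, and EPCAM (0.08) did not pass. The part of these markers in the results was not tested. Of 5 fibroblast markers COL1A2, DCN and LUM were at 0 in all libraries, while the sum, almost all of it PDGFRB, was 53.3 to 77.9 in siGL3, 46.7 to 59.9 in siMYOF, 25.6 to 39.7 in DMSO and 13.6 to 16.8 in WJ460, and its part in the results was not tested. Leukocyte markers summed to 5.22 to 36.1, endothelial markers to 0 to 4.49 and neuronal markers to 0 to 10.9.

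The promoters were searched for the 2 motifs named above. The stretches of EGR1 and EGR2 are shown because they hold all CArG boxes found among the genes searched. Sequences are those of RefSeq on GRCh38.p14, from 250 bases before to 50 bases after each annotated start. The search covered 7 of the 10 genes, with 10 windows among them. IER3 had no entry, and ARC and EGR3 were left out of the search, so nothing is said of their promoters. Both stretches are written 5′ to 3′ on the gene's own strand, with the CArG boxes in capitals.
EGR1, chr5:138465334-138465433, plus strand, 145 to 46 bases upstream of the start: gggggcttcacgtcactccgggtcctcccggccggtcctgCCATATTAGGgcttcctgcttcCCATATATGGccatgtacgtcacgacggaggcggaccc
EGR2, chr10:62816402-62816491, minus strand, 125 to 36 bases upstream of its downstream-most annotated start: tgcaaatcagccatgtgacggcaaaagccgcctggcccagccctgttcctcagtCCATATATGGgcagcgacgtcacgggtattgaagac

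EGR1 had CArG boxes beginning 105 and 83 bases upstream of its start, and EGR2 had 1 beginning 71 bases upstream of the last of its 3 starts. These were the only 2 of the 10 windows with a CArG box, against 1.29% of 35116 RefSeq windows of the same length. The cAMP response element core TGACG, on either strand, was present in 4 of the 10 windows (EGR1, the same EGR2 window, IER2 and KLF4) and in 24.6% of all windows. IER2 held it 140 bases upstream of its start, and KLF4 held it 247 and 210 bases upstream. Neither motif occurred in the windows of NR4A1, KLF6 or PHLDA1, which says only that these letters are absent there. The stretches are printed as description, and binding was not measured.

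Levels of the 10 genes spanned a wide range. Per kilobase of annotated exon, the mean level in DMSO was highest for PHLDA1 (1193 normalized counts per kb), followed by IER3 (498), KLF6 (275), IER2 (117), EGR1 (24.2), KLF4 (13.4), NR4A1 (2.01), ARC (1.03), EGR2 (0.641) and EGR3 (0.0652). The exon length counts the bases of all isoforms together, so the levels of genes with several isoforms are approximate. In siMYOF the mean per kilobase was 252 for EGR1 and 39.2 for KLF4, and EGR1 then stood above IER2 (150). For 9 of the 10 genes the group mean was highest in siMYOF, and IER3 was the exception. The low counts of ARC, EGR2, EGR3 and NR4A1 limit what can be said of them, and EGR3 fell under the mean of 5 normalized counts required for a test. In bulk RNA, fewer cells expressing a gene and less RNA per cell cannot be told apart.

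**Figure D1:**
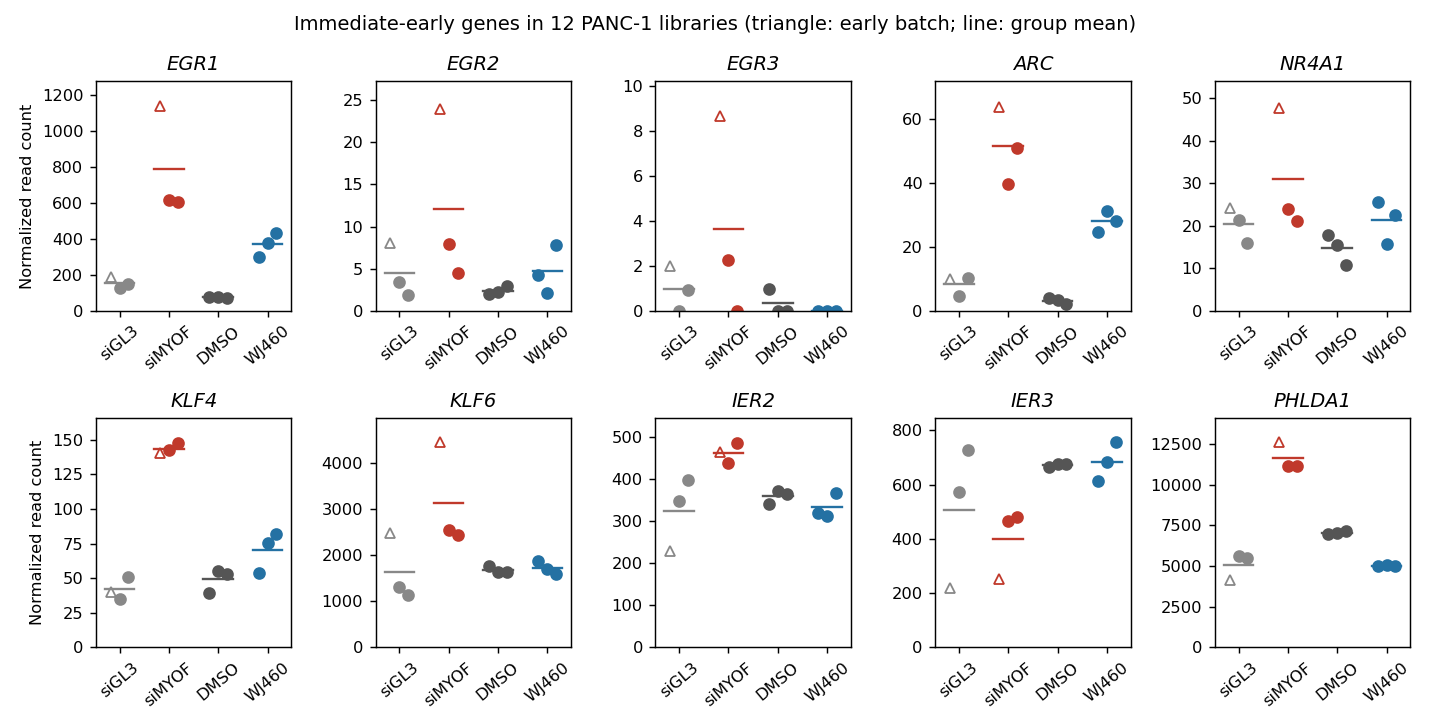
Normalized read count (linear axis from 0, own scale per gene) of the 10 genes in the 3 libraries of each group, with the group mean as a line and the early-batch libraries as open triangles. EGR1 and ARC are higher in all siMYOF and WJ460 libraries than in all libraries of their controls, whereas KLF6, IER2 and PHLDA1 have their highest group mean in siMYOF with no such rise in WJ460, and IER3 is lowest in the 2 early libraries.

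The first question was whether depletion of myoferlin by siRNA changed these genes. Of the 9 genes tested, 6 were higher in siMYOF than in siGL3 (EGR1, ARC, KLF4, KLF6, IER2 and PHLDA1), none was lower, and 3 did not pass (EGR2, NR4A1 and IER3). Among all 14720 genes tested, 28.0% were higher and 25.9% lower, so that most genes (53.9%) passed in this comparison. The median log2 fold change of the 9 was 1.14, against 0.01 over all genes. With scaling by total reads, under which the median of all genes was -0.10 and which moved the split of all calls from 4126 higher and 3806 lower to 3189 and 4757, the counts were 6 higher and 1 lower (IER3). In 5 of the 9 (EGR1, ARC, KLF4, IER2 and PHLDA1) every siMYOF library was above every siGL3 library, which held for 20.8% of all genes, and in none was every siMYOF library below, which held for 20.1%. The second question was what the compound did: with WJ460, 3 of the 9 were higher than in DMSO (EGR1, ARC and KLF4) and PHLDA1 was lower, against 27.3% higher and 25.6% lower among all genes (52.9% in either direction). EGR1 and ARC were higher without overlap of the libraries, as were 32.0% of all genes, and PHLDA1 was lower without overlap, as were 30.2%. The median of the 9 with WJ460 was 0.50, against 0 over all genes, and with scaling by total reads, which moved that median by -0.15 and the split of all calls from 4017 higher and 3767 lower to 2639 and 5195, 2 of the 9 were higher and 1 lower.

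EGR1 (ENSG00000120738, chromosome 5, 138465479 to 138469303, plus strand) encodes the founding zinc finger factor of the EGR family. Its normalized counts were 188, 125 and 147 in siGL3, 1143, 617 and 608 in siMYOF, 78.8, 77.2 and 71.8 in DMSO, and 299, 379 and 434 in WJ460. All siMYOF and WJ460 libraries lay above all control libraries of either kind, and no library of 1 group fell within the range of another. The log2 fold change was 2.31 with siMYOF (SE 0.13, adjusted p = 9.94e-11) and 2.26 with WJ460 (SE 0.13, adjusted p = 2.58e-10), that is 4.96-fold and 4.78-fold, higher in 3 of 3 treated libraries each. The difference between these effects was 0.05 with a 95% interval of -0.34 to 0.44 (adjusted p = 0.837).

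ARC (ENSG00000198576, chromosome 8, 142611049 to 142614479, minus strand) encodes a capsid-forming protein of the postsynapse, known from neurons, where its transcription is induced by activity and needs SRF. It was at 10.1, 4.52 and 10.3 normalized counts in siGL3, 63.8, 39.8 and 51.0 in siMYOF, 3.94, 3.31 and 1.97 in DMSO, and 24.6, 31.3 and 28.1 in WJ460. The 4 groups stood in the same order as for EGR1 (DMSO, siGL3, WJ460, siMYOF), again with no overlap between neighbors. These values rest on 2 to 4 reads per DMSO library, 4 to 15 per siGL3 library and 35 to 88 per siMYOF library. The log2 fold change was 2.55 with siMYOF (SE 0.33, adjusted p = 2.96e-06) and 2.86 with WJ460 (SE 0.33, adjusted p = 8.61e-07). Effects differed by -0.31 (95% interval -1.29 to 0.67, adjusted p = 0.613). On log2 values the correlation of EGR1 with ARC across the 12 libraries was r = 0.98, and 0.98 over the 10 late ones, as a description, since the libraries share their groups and each pair of values shares a size factor.

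EGR2 and EGR3 are the close relatives of EGR1 and recognise a similar GC-rich site. EGR2 (ENSG00000122877, chromosome 10, 62811996 to 62819167, minus strand) was at 8.06, 3.39 and 1.87 normalized counts in siGL3 and 23.9, 7.97 and 4.44 in siMYOF, and at 1.97, 2.21 and 2.95 in DMSO and 4.29, 2.09 and 7.86 in WJ460. The groups overlapped in both comparisons, and in both siRNA groups the early library was the highest. Neither change passed, with 1.14 for siMYOF (SE 0.49, adjusted p = 0.0577) and 0.65 for WJ460 (SE 0.49, adjusted p = 0.282). With an edgeR test on the recovered reads the siMYOF change of EGR2 passed (1.43, adjusted p = 0.00959), and with a pseudocount of 5 it passed as well (adjusted p = 0.0331). EGR3 (ENSG00000179388, chromosome 8, 22687659 to 22693480, minus strand) had 3, 0 and 1 reads in siGL3, 12, 2 and 0 in siMYOF and 1, 0 and 0 in DMSO. WJ460 libraries held 0 reads of EGR3, which at 3 reads as the limit for a count of 0 does not set WJ460 apart from DMSO. Of the 18 reads for siMYOF and siGL3 together, 15 were in the 2 early libraries, which also held the most reads in all.

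NR4A1 (ENSG00000123358, chromosome 12, 52022832 to 52059507, plus strand) encodes a nuclear receptor without a classical ligand, induced by growth factors and by cAMP. It was at 24.2, 21.5 and 15.9 normalized counts in siGL3, 47.8, 23.9 and 21.1 in siMYOF, 17.7, 15.4 and 10.8 in DMSO, and 25.7, 15.6 and 22.5 in WJ460. The early siMYOF library stood far above the others, and the groups overlapped in both comparisons. The change was 0.50 with siMYOF (SE 0.29, adjusted p = 0.156) and 0.51 with WJ460 (SE 0.29, adjusted p = 0.149), and the effects differed by -0.01 with an interval of -0.86 to 0.84.

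KLF4 (ENSG00000136826, chromosome 9, 107484852 to 107490482, minus strand) encodes a zinc finger factor of epithelial differentiation and one of the reprogramming factors. It was at 40.3, 35.0 and 50.5 normalized counts in siGL3, 141, 142 and 148 in siMYOF, 39.4, 55.2 and 53.1 in DMSO, and 53.6, 75.1 and 81.9 in WJ460. The siMYOF libraries were tightly grouped above all others, whereas the lowest WJ460 library lay within the DMSO range. With siMYOF the change was 1.77 (SE 0.20, adjusted p = 5.03e-07), or 3.40-fold, with 1.78 for the early pair and 1.76 for the late libraries. With WJ460 it was 0.50 (SE 0.20, adjusted p = 0.0419), and this call was lost under several alternatives, among them scaling by total reads (adjusted p = 0.156), a fit without DMSO replicate 1 (adjusted p = 0.195) or without WJ460 replicate 3 (adjusted p = 0.173). The siMYOF effect exceeded the WJ460 effect by 1.27 (SE 0.28, adjusted p = 0.00098).

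KLF6 (ENSG00000067082, chromosome 10, 3775996 to 3785281, minus strand) encodes a widely expressed Krüppel-like factor with a tumor suppressor record. Its normalized counts were 2483, 1316 and 1126 in siGL3, 4443, 2538 and 2429 in siMYOF, 1772, 1641 and 1642 in DMSO, and 1874, 1696 and 1596 in WJ460. The early siRNA libraries were the higher ones in both siRNA groups, so that the early siGL3 library lay within the siMYOF range, while within each batch siMYOF was above siGL3. The change with siMYOF was 0.97 (SE 0.076, adjusted p = 5.80e-09), with 0.84 for the early pair and 1.03 for the late libraries, a difference that did not pass (adjusted p = 0.770). With WJ460 it was 0.03 (95% interval -0.13 to 0.19, adjusted p = 0.769). The effects differed by 0.94 (SE 0.11, adjusted p = 1.02e-06), a call that was lost when the batch term was left out (adjusted p = 0.0893).

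**Figure D2:**
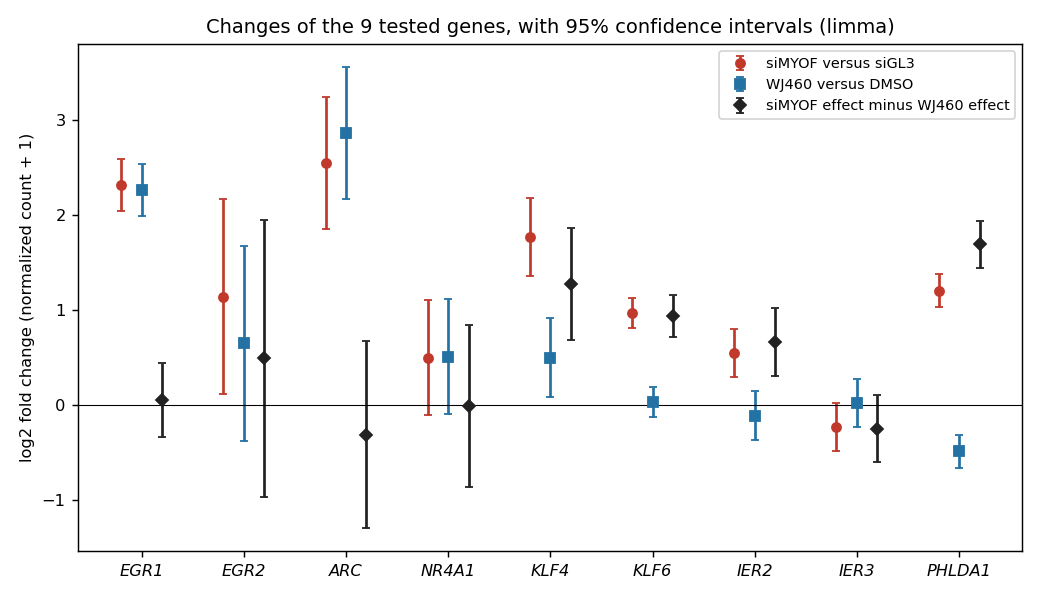
Log2 fold change on the log2(normalized count + 1) scale of the 9 tested genes with siMYOF (circles), with WJ460 (squares) and the difference between the effects (diamonds), with 95% confidence intervals from limma. EGR1 and ARC lie above 2 for both treatments with a difference whose interval spans 0, and the differences for KLF4, KLF6, IER2 and PHLDA1 lie above 0.

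IER2 (ENSG00000160888, chromosome 19, 13150411 to 13154911, plus strand) encodes a small nuclear protein of the immediate-early response. It was at 229, 347 and 397 normalized counts in siGL3, 462, 438 and 486 in siMYOF, 339.7, 372 and 365 in DMSO, and 319, 311 and 367 in WJ460. The siMYOF libraries lay above all others, by a small margin over the highest siGL3 library. The change with siMYOF was 0.55 (SE 0.12, adjusted p = 0.000879), with 1.01 for the early pair against 0.31 for the late libraries (adjusted p of the difference = 0.208). With WJ460 it was -0.11 (SE 0.12, adjusted p = 0.458), and the effects differed by 0.66 (SE 0.17, adjusted p = 0.00374), a call lost without the batch term (adjusted p = 0.0541).

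IER3 (ENSG00000137331, chromosome 6, 30743199 to 30744548, minus strand) encodes a stress-inducible regulator of survival and of ERK signalling. It was at 219, 573 and 726 normalized counts in siGL3, 252, 464 and 482 in siMYOF, 667, 675 and 676 in DMSO, and 614, 684 and 755 in WJ460. The early libraries were lowest in both siRNA groups, and among the late libraries siMYOF was below siGL3. Over all libraries the change with siMYOF was -0.23 (SE 0.12, adjusted p = 0.113). Between the early libraries it was 0.20 and between the late ones -0.45 (adjusted p = 0.00435), and the difference between those values did not pass (adjusted p = 0.256). WJ460 changed IER3 by 0.02 (95% interval -0.23 to 0.27, adjusted p = 0.895). Without siGL3 replicate 1 or siMYOF replicate 1, IER3 was called lower with siMYOF.

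PHLDA1 (ENSG00000139289, chromosome 12, 76025447 to 76031776, minus strand) was the most abundant of the 10 genes. It is induced by ERK signalling and has been tied to the control of apoptosis. Its normalized counts were 4173, 5614 and 5504 in siGL3, 12603, 11152 and 11157 in siMYOF, 6958, 7060.1 and 7138 in DMSO, and 5024, 5069 and 4984 in WJ460. Libraries within DMSO, within WJ460 and within late siMYOF differed little, and the treated groups lay apart from their controls in opposite directions. The change with siMYOF was 1.20 (SE 0.083, adjusted p = 1.99e-09), or 2.30-fold higher, and with WJ460 it was -0.49 (SE 0.083, adjusted p = 8.1e-05), or 0.713 of DMSO. The effects differed by 1.69 (SE 0.12, adjusted p = 5.59e-09).

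The early pair holds 1 library per group, so its effects have no spread of their own, and their tests take the spread from the other libraries. With that limit, the siMYOF change of PHLDA1 was 1.59 for the early pair against 1.00 for the late libraries, a difference of 0.59 (adjusted p = 0.0177), and 39 of 14720 genes passed in this comparison. MYOF itself fell less in the early pair, with a difference of 1.24 (adjusted p = 0.011), and the bearing of the batch on either value was not tested beyond this. For EGR1 the early and late changes were 2.60 and 2.17 (adjusted p of the difference = 0.658), and for ARC both were 2.55. In the fit with early and late effects apart, EGR1, ARC, KLF4, KLF6, IER2 and PHLDA1 were higher with siMYOF in both batches, and IER2 was nearest to the threshold among late libraries (0.31, adjusted p = 0.0333).

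**Figure D3:**
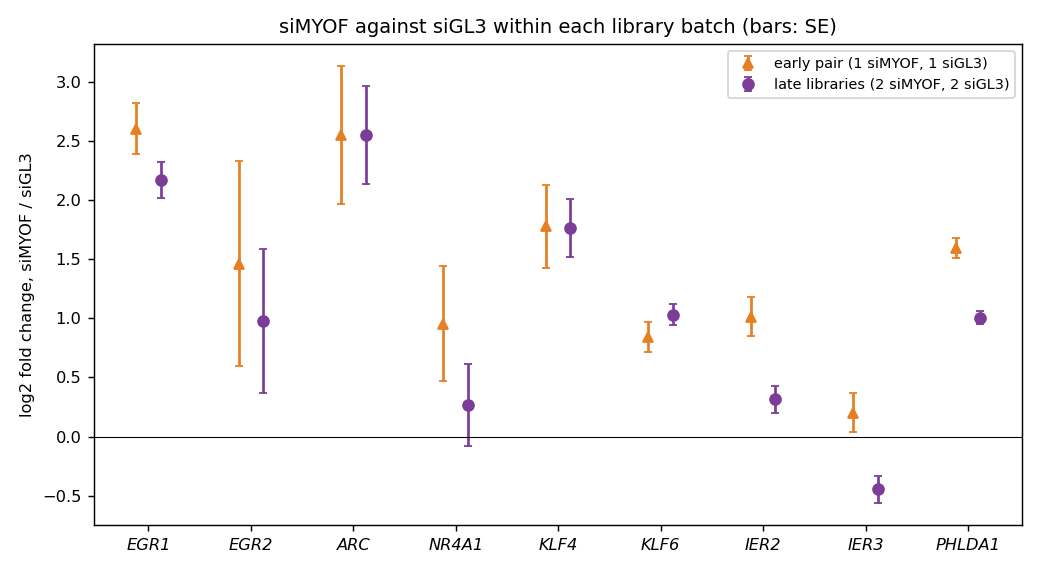
Log2 fold change of siMYOF over siGL3 for the 9 tested genes, early pair (triangles, 1 library each) and late libraries (circles, 2 libraries each), with standard errors from 1 limma fit. PHLDA1 is at 1.59 and 1.00 with bars that do not meet, ARC is at 2.55 in both, and IER3 lies on either side of 0.

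Set side by side, the treatments shared EGR1, ARC and KLF4 as genes that were higher in both (3 of 9), against 11.6% of all genes tested. PHLDA1 was higher with siMYOF and lower with WJ460 (1 of 9), against 6.05%. The KLF4 call with WJ460 was lost under several alternatives, and without it EGR1 and ARC remained shared. For 4 of the 9 (PHLDA1, KLF6, KLF4 and IER2) the siMYOF effect exceeded the WJ460 effect, and for none was it smaller. Over all genes 24.2% had a larger and 24.0% a smaller siMYOF effect (48.2% in either direction). The arms may differ in the time since the start of treatment, and the part of this in the differences was not tested. For EGR1, ARC, EGR2, NR4A1 and IER3 the difference did not pass, which does not show that the effects were alike: the interval for EGR2 ran from -0.96 to 1.94, and for IER3 from -0.61 to 0.10.

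The control groups were compared next, because the siRNA and compound arms had separate controls. In siGL3 against DMSO, EGR1 (0.76, SE 0.14, adjusted p = 0.000461) and ARC (0.99, SE 0.35, adjusted p = 0.0382) were higher, and KLF6 (-0.44, SE 0.080, adjusted p = 0.000454) and PHLDA1 (-0.44, SE 0.088, adjusted p = 0.001) were lower. Of all genes 16.1% were higher and 16.0% lower (32.1% in either direction), a split of 2363 to 2357 that became 1764 to 2974 with scaling by total reads. The ARC call was lost with most other settings, and that of KLF6 without the batch term (-0.13, adjusted p = 0.819). The other changes ranged from -0.21 for KLF4 to 0.23 for NR4A1, and none passed. Transfection, wash and the time since the start of treatment cannot be told apart in this comparison. It shares its control samples with the comparisons above, so the values are set side by side and not counted together.

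Between early and late siRNA libraries, EGR1 (0.68), EGR2 (1.59) and KLF6 (0.93) were higher in the early ones and IER2 (-0.35) and IER3 (-1.23) lower, against 21.2% and 23.8% of all genes. Of the 4 ductal genes tested KRT18 (-1.19), KRT19 (-1.21) and KRT8 (-0.49) were also lower there, and EPCAM was at 0.56 (adjusted p = 0.0516, not passed). PHLDA1 (-0.12), KLF4 (-0.05), ARC (0.49) and NR4A1 (0.71) did not pass. The correlation of IER3 with KLF6 over the 12 libraries was -0.80 and over the 10 late ones -0.73, and that of IER2 with PHLDA1 was 0.84 and 0.82. These correlations are descriptions, over libraries that share groups and size factors.

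The genes whose log2 values followed EGR1 most closely over the 12 libraries, among 10956 genes with a mean of at least 50 normalized counts, were STARD13 (r = 0.99), ZNF143 (0.99), EIF3J (0.98), ELMOD1 (0.98) and COPS2 (0.98). ARC, with its lower counts, was not a candidate. For IER3 they were MED25 (0.99), WSCD1 (0.98), EPHB6 (0.97), FEM1A (0.97) and ATP5ME (0.97). In the 10 late libraries alone, 1 of the 5 neighbors of EGR1 and 0 of the 5 of IER3 stayed among the closest 5. Correlations of the 5 neighbors with EGR1 were still 0.97 to 0.99 there, while those with IER3 were 0.81 to 0.91.

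The members were then set beside 26 other immediate-early genes. That list was written with earlier results of these data known, so its counts are description and not an independent check. With siMYOF 21 of these 26 were higher and 1 lower (PLK2, a polo-like kinase, -0.59), and with WJ460 18 were higher and 2 lower (PLK2, -0.54, and ZFP36L1, which encodes an mRNA-destabilising protein, -0.51). The shares of all genes were 28.0% higher and 25.9% lower with siMYOF and 27.3% and 25.6% with WJ460. Medians of the 26 were 0.91 and 0.66. Those with the smallest p-values for siMYOF were GEM (1.56), a small GTPase, SRF (1.16), the factor of the CArG box, MCL1 (1.20), a survival factor of the BCL2 family, and ZFP36 (0.67), which destabilises AU-rich mRNAs. For WJ460 they were the bZIP factor genes MAFF (2.04) and FOSB (2.49), then GEM (0.97) and the kinase gene SGK1 (1.67). SRF (0.12), MCL1 (0.04) and ZFP36 (-0.08) did not pass with WJ460. In the late libraries alone the siMYOF counts were 18 higher and 1 lower, and with scaling by total reads the WJ460 counts were 14 and 4.

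**Figure D4:**
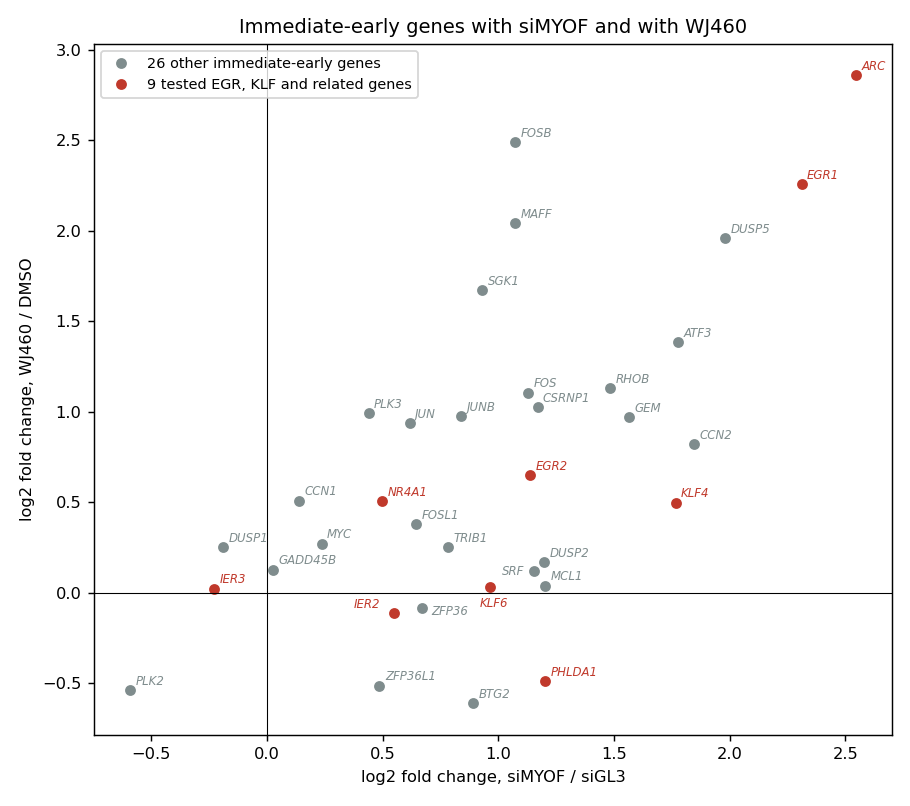
Log2 fold change with siMYOF (horizontal) and with WJ460 (vertical) for the 9 tested genes and 26 other immediate-early genes, each point being 1 gene. EGR1 and ARC lie at the upper right, above 2 on both axes. PHLDA1 lies below 0 on the vertical axis alone, as do IER2, ZFP36, ZFP36L1 and BTG2.

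Of the relatives of these genes, 7 of 9 were measured well enough. The shares of all genes, for both lists of this paragraph, were 28.0% higher and 25.9% lower with siMYOF and 27.3% and 25.6% with WJ460. With siMYOF NR4A2, the closest relative of NR4A1 here (1.32), and NAB2 (0.45) were higher and none was lower, and the median was 0.45. These 2 of 7 were near the share of all genes. NR4A2 was at 0.98 to 4.41 normalized counts in DMSO, and its siMYOF libraries (11.1 to 34.1) overlapped those of siGL3 (4.68 to 16.1). With WJ460 NR4A2 (1.25), NAB1 (0.40), NAB2 (0.50) and PHLDA2 (0.97) were higher and IER5L (-1.21) was lower, with a median of 0.40 (4 higher and 2 lower with scaling by total reads). NAB1 and NAB2 encode corepressors that bind EGR proteins, and NAB2 is itself a target of EGR1. Of 15 other Krüppel-like factors 10 were tested. With siMYOF 5 were higher and none lower (median 0.62, and 5 and 1 with the replicate number as a block). Among the 5 were KLF2 (1.87, from 2.69 to 5.65 normalized counts in siGL3), KLF7 (1.49), KLF3 (1.17) and KLF10 (0.81). With WJ460 1 was higher (KLF10, 0.92) and 3 were lower (KLF12, -0.80, KLF3, -0.37, and KLF13, -0.30), with a median of -0.17. By the difference of the effects, 4 of the 10 had a larger siMYOF effect and none a smaller one, against 24.2% and 24.0% of all genes. With scaling by total reads the counts for the other Krüppel-like factors were 4 higher and 2 lower with siMYOF.

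Finally, the genes of the route to these promoters were read. Of 13 transcription factors and coactivators, 8 were higher and 2 lower with siMYOF (median 0.32), and 1 was higher and 4 lower with WJ460 (median -0.05), beside the all-gene shares of 28.0% and 25.9% with siMYOF and 27.3% and 25.6% with WJ460. With scaling by total reads the counts were 5 higher and 2 lower with siMYOF and 1 and 8 with WJ460. ELK3, a ternary complex factor, was at 1.07 with siMYOF and 0.04 with WJ460 (not passed). ATF1, of the CREB family, was at 0.67 and 0.08 (not passed), and MEF2C at 0.68 and 0.02 (not passed). The SRF coactivator MRTFB was lower with both, at -0.80 and -0.88. With WJ460 the CREB coactivator CRTC2 was higher (0.67), and CREB1 (-0.66) and the ternary complex factor ELK4 (-0.49) were lower. Of 16 genes of the ERK route, 7 were higher and 5 lower with siMYOF (median 0.15, and 5 and 5 with scaling by total reads), with EGFR (0.57) and MAP2K1 (0.47) higher and MAPK3, the gene of ERK1, lower (-0.79). With WJ460 4 were higher and 6 lower (median -0.10, and 3 and 8 with scaling by total reads), with EGFR (0.32) and RPS6KA4 (0.37) higher and NRAS (-0.30) lower. These are mRNA levels, and ERK phosphorylation was not measured in these files.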

How the data were processed

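The authors made stranded mRNA libraries and, per their methods and processing notes, used the nf-core pipeline with STAR and Salmon on GRCh38 and an Ensembl annotation, then DESeq2. Each deposited signal value equalled a read count over a size factor, 1 factor per library. Whole reads were recovered for 100% of values (tolerance 0.001), and an edgeR quasi-likelihood test on those reads called 8123 genes for siMYOF and 7820 for WJ460. The main test was limma (version 3.58.1, R 4.3.3) on log2(value + 1), trended and robust, over the 14720 genes whose mean reached 5. Group and batch were the terms of 1 fit to the 12 libraries. p-values were adjusted by Benjamini-Hochberg over all genes tested, genes passed under 0.05, and every adjusted p is limma's unless another tool is named. The log2(value + 1) scale understates changes of genes with few reads.

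Among 60617 genes, 1530 repeated symbols occurred, so genes were followed by identifier. Columns left unused numbered 0. The text gives all 10 genes, MYOF, up to 4 genes of each context list by smallest p, the tested ductal genes, marker lists otherwise as sums, and the 5 closest patterns with a mean of at least 50. Genes outside this rule (ZFP36L1, PLK2 and NR4A2, and the values of a gene in the treatment for which it was not chosen) were named after their values were seen. The members and the lists were chosen with earlier results of these data known. Same-numbered siGL3 and siMYOF libraries deviated together (r = 0.82, 0.53 and 0.60 across genes), in large part by batch, and DMSO and WJ460 libraries did not (0.026, -0.0020 and 0.0046). Late siGL3 and siMYOF libraries with unlike numbers gave 0.49 and 0.45. The difference of replicate 2 and replicate 3 correlated at 0.13 between siGL3 and siMYOF. Pairing of the late libraries by number is thus not shown. The main fit had no replicate block, and the alternative with a block paired both arms by number. Counts were also tested with edgeR 4.0.16 and DESeq2 1.42.0. Values of some genes of the context lists are not reported here. The procedure was tested on simulated data, in which far fewer genes changed than passed here, balanced in direction. A setting where most genes change was not simulated.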

Additional observations from a re-analysis of the deposited data

Results flagged for a closer look

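For 4 of the 9 tested genes the siMYOF effect and the WJ460 effect differed by limma's interaction test, in log2 units: PHLDA1 by 1.69, KLF4 by 1.27, KLF6 by 0.94 and IER2 by 0.66. Over all genes 48.2% differed, so the count is near that share. For PHLDA1 the treatments moved the gene in opposite directions. For PHLDA1 the siMYOF effect was also larger by 0.59 in the early pair than in the late libraries by the same kind of test, in which the early pair has 1 library per group and no spread of its own, so that the spread came from the other libraries.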

How the results depend on the processing

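All 6 siMYOF calls, and the WJ460 calls for EGR1, ARC and PHLDA1, held under all alternatives tried. The siMYOF count of 6 higher genes ranged from 6 to 7 without 1 library, and the genes called from 6928 to 8226. The count lower was 1 with scaling by total reads, 1 in the late batch only and 0 to 1 without 1 library (IER3, without siGL3 replicate 1 or siMYOF replicate 1). With WJ460 the count higher ranged from 2 to 3 without 1 library (KLF4), and 5140 genes were called without the batch term, where KLF4 was lost (adjusted p = 0.0862). For the difference of effects, 4309 genes and 2 higher genes were called without the batch term (IER2 and KLF6 lost), and 1 gene was lower in the late batch only and 0 to 1 without 1 library (IER3, -0.47). For siGL3 against DMSO, 1331 genes were called without the batch term, with 1 gene higher and 1 lower. The count higher was also 1 with a pseudocount of 5, no filter, edgeR, DESeq2, the late batch only and own libraries only (ARC lost), and the counts were 1 to 2 higher and 2 to 3 lower without 1 library. Without the batch term, 3 genes of the ERK route list were higher and 1 lower with siMYOF and 1 and 2 with WJ460, and 1 other Krüppel-like factor was lower with WJ460. With scaling by total reads 8 transcription factors were lower with WJ460. In the late libraries 1 neighbor of EGR1 and 0 of IER3 stayed among the closest 5.

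Directions turned only where no call had been made. With WJ460, IER3 was at -0.139 and KLF6 at -0.131 with scaling by total reads, and without 1 library they ran from -0.0527 to 0.0966 and from -0.0335 to 0.0822. For the difference of effects, EGR1 was at -0.0911 in the late batch only (-0.0922 to 0.177 without 1 library), ARC at 0.0651 with a pseudocount of 5, and NR4A1 at 0.0192 with a pseudocount of 5, 0.0351 with total reads, 0.0698 with edgeR and 0.0317 with DESeq2 (-0.239 to 0.18 without 1 library). For siGL3 against DMSO, EGR2 was at -0.0565 with a pseudocount of 5, -0.0405 with total reads and -0.0411 with edgeR (-0.273 to 0.164 without 1 library), IER2 at 0.0488 in the late batch only and with own libraries only (-0.220 to 0.0488 without 1 library), and NR4A1 ran from -0.00134 to 0.368. Scaling by total reads moved the median of all genes by -0.15 with WJ460. The cause of these changes was not tested.

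With the replicate number as a block, siMYOF gave 6 higher and 0 lower, WJ460 3 and 1, and the difference 4 and 0, so the block changed no call among the 9 genes. In the lists, the other Krüppel-like factors went to 5 higher and 1 lower with siMYOF and to 5 higher for the difference, the other immediate-early genes to 17 higher with WJ460 and the ERK route list to 5 lower with WJ460. No block was fitted for siGL3 against DMSO, the difference has no fit on own libraries only, and EGR2 has no value at a mean of at least 20. The early and late effects and the list counts under other settings were added after seeing the data. Low counts limit EGR2, EGR3, NR4A1 and ARC, and NR4A2 and KLF2 among the listed genes.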
